A study of Mus musculus with 6 samples.

Results

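The genes described here mark a state of microglia, the resident macrophages of the central nervous system, whose full expression depends on the receptor TREM2. They were chosen by symbol from a list of 10 names, 9 of which had a row among the 25755 genes of the deposited table. The 9 genes were Trem2, Tyrobp, Clec7a, Itgax, Lpl, Gpnmb, Spp1, Cd9 and Igf1. The tenth entry, written as Ch25h with the ending "none", matched no row, and Ch25h itself is described with the related genes. All 6 mice were NF1flox/flox;hGFAP-Cre, a genotype in which Cre driven by the human GFAP promoter removes Nf1 from neuroglial progenitors, a lineage that does not give rise to microglia. Whole optic nerves were taken at 3 months of age from 3 mice with sham surgery (mice 1 to 3) and 3 mice with bilateral optic nerve crush (ON-CR; mice 4 to 6), with surgery at 6 weeks of age, and their RNA was sequenced in bulk to find transcripts that change after nerve injury in mice at risk of optic glioma. Nf1 itself, which both groups lack in the same lineage, was between 343 and 447 in the sham group and between 380.0 and 438 with ON-CR (log2 fold change 0.10, limma adjusted p = 0.798).

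TREM2 binds lipids and lipoproteins on the microglial surface and signals through the adaptor TYROBP, also called DAP12, which recruits the kinase SYK. Where myelin or neurons are damaged, microglia that engage this pathway lower some genes of the resting state and raise receptors for debris, lysosomal proteins and enzymes of lipid handling, a pattern known as disease-associated microglia. The early part of this change is known to proceed without TREM2, and genes such as Clec7a, Itgax and Lpl belong to the later, TREM2-dependent part. Several of the 9 genes are also expressed outside microglia. Examples are Cd9 in oligodendrocytes, Gpnmb in pigment cells, Lpl in fat and muscle, Igf1 in fibroblasts and Itgax in dendritic cells. These examples are not a complete list of sources.

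Promoter windows are shown for the 3 members with the strongest rises for which a RefSeq entry was found (Clec7a, Itgax and Gpnmb) and for Spp1, a member with a small rise whose window held a match. A window was found for 7 of the 9 members, and none for Tyrobp or Lpl. Each holds up to 250 bases before the most upstream RefSeq start on GRCm38.p6, 5′ to 3′ on the strand of the gene, and capitals mark a match to one of 3 motifs searched on both strands. The windows lie at chr6:129472786-129473035 (minus strand) for Clec7a, chr7:128129300-128129546 (plus strand) for Itgax, chr6:49036268-49036517 (plus strand) for Gpnmb and chr5:104434861-104435110 (plus strand) for Spp1.
Clec7a: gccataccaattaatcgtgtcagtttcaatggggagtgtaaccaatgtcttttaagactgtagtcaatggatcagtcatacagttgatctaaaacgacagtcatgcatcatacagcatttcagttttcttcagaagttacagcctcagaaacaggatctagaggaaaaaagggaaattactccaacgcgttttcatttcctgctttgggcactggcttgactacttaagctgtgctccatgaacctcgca
Itgax: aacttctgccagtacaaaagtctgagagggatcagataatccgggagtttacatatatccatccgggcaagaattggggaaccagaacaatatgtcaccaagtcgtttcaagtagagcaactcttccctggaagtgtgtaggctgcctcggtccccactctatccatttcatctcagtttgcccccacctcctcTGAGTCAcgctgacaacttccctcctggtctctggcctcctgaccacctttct
Gpnmb: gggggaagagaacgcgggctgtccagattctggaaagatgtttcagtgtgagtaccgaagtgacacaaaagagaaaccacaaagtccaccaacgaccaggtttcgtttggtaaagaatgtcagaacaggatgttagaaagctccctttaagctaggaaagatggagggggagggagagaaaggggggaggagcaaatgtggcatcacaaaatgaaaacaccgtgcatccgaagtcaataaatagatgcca
Spp1: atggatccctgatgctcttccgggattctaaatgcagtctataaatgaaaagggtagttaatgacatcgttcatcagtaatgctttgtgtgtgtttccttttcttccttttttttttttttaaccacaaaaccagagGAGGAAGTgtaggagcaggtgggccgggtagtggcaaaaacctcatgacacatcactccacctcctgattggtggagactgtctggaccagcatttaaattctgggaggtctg
The capitals in the Spp1 window, 113 bases before the start, spell GAGGAAGT, a sequence bound by the myeloid factor PU.1, which was in 2.42% of the windows of all 27025 genes. Those in the Itgax window, 56 bases before the start, spell TGAGTCA, the reverse complement of the AP-1 site TGACTCA, which 4.43% of all windows held. The E-box TCACGTGA, used by MITF and its relatives, was in 0.803% of all windows and in none of the 7 of members. The 3 motifs overlapped nowhere in these windows, and 5 of the 7 windows held no match.

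The libraries held between 17414042 and 23620995 estimated reads on genes, and the 3 ON-CR libraries were the shallowest. The lowest level of any member was 28 estimated reads, for Itgax in sham mouse 1, so all 9 were well above the floor of 3 reads and none was lost to a filter on low values. Sex-linked transcripts differed between the groups as well. Ddx3y, from the Y chromosome, was between 1291 and 1645 in the sham mice and at 976, 4.19 and 0 with ON-CR, and Xist was between 2.14 and 30.9 in the sham mice and at 2708, 6357 and 6131 with ON-CR. Sex and surgery therefore cannot be told apart for any gene below. The labels name 1 mouse per library, while the optic nerve qPCR of the paper used more than 1 mouse per sample. Whether RNA of several mice was pooled in a library here is not given, and each library is called a mouse by its label. ON-CR mouse 6 stood apart in its B cell and plasma cell transcripts, and the calls of the members are given with and without it. In bulk RNA, more cells of a type and more RNA of a gene per cell cannot be told apart.

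Of the 9 members, 8 were higher after ON-CR at an adjusted p at or under 0.05 by limma, over all genes tested, and 0 were lower. Of all genes, 0.971% were called higher and 1.13% lower. The same 8 members had every ON-CR mouse above every sham mouse, which 10.5% of all genes did. The median log2 fold change of the members was 1.66, against 0.03 for all genes. The rises fell into 3 sizes, with Clec7a, Itgax, Lpl and Gpnmb between 2.32 and 3.41 on the log2 scale, Trem2 and Tyrobp at 1.66 and 1.26, and Spp1 and Cd9 at 0.81 and 0.84. Igf1 was the member not called.

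**Figure D1:**
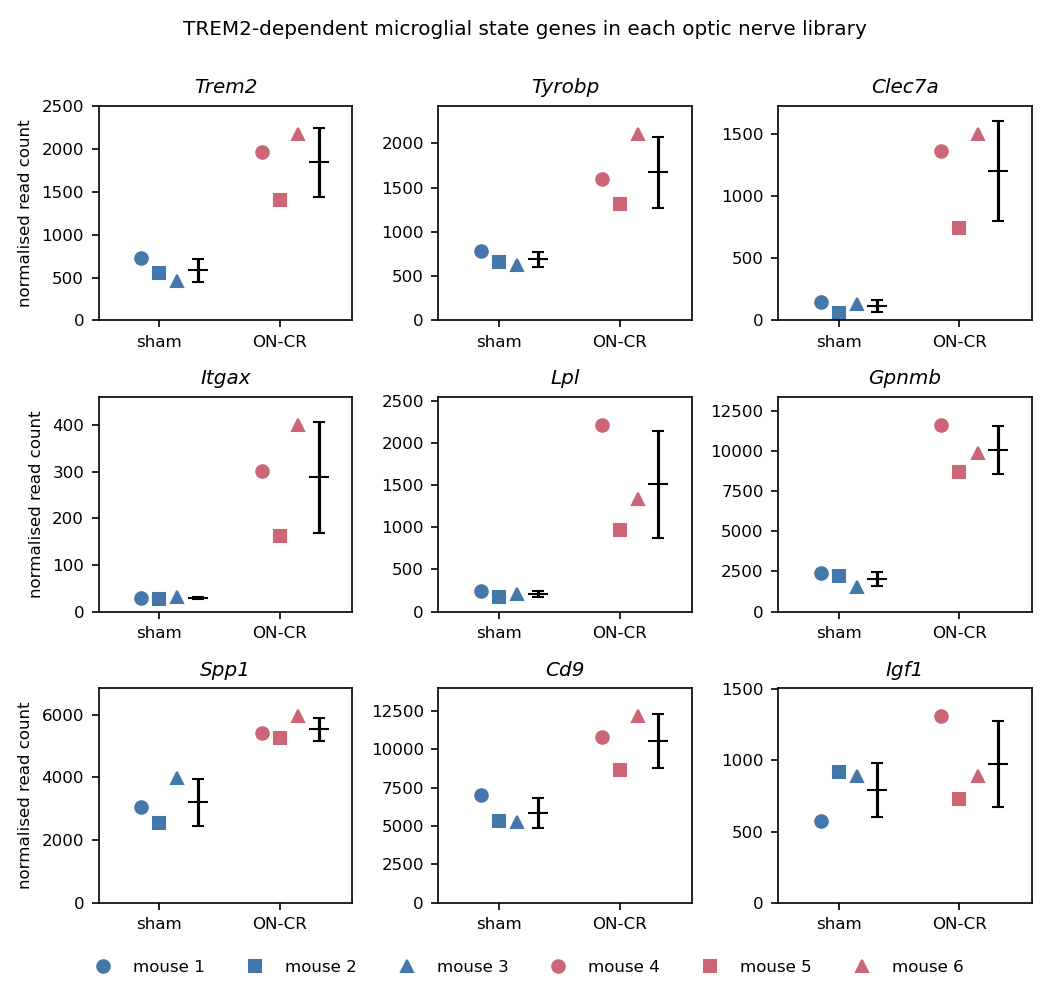
Normalised read count (vertical axes, from 0) of each of the 9 genes in sham mice 1 to 3 and ON-CR mice 4 to 6, 1 point per mouse, with the mean and SD of the group (n = 3) in black beside the points. In every panel except that of Igf1 the 3 ON-CR points lie above the 3 sham points, and in all 9 panels ON-CR mouse 5 (red square) is the lowest of its group.

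The receptor and its adaptor come first, with values given in the order of mice 1, 2 and 3 (sham) and 4, 5 and 6 (ON-CR) here and for each gene that follows. Trem2 (ENSMUSG00000023992.14, chromosome 17 of GRCm38 from 48346401 to 48354147), the lipid-sensing receptor for which the state is named, had normalised read counts of 726, 556 and 463 in the sham group and 1964, 1397 and 2174 with ON-CR. The lowest ON-CR mouse was thus 1.93-fold above the highest sham mouse, and the coefficient of variation was about the same in the groups, 22.9% for sham and 21.8% for ON-CR mice. The means were 582 ± 133 and 1845 ± 402 (SD, n = 3 each), which is a log2 fold change of 1.66 (95% interval 1.22 to 2.11, limma adjusted p = 0.00353). Tyrobp (ENSMUSG00000030579.10, chromosome 7 from 30413760 to 30417585), the adaptor that carries the TREM2 signal into the cell, was at 784, 656 and 625 in the sham group and 1603, 1313 and 2109 with ON-CR. It rose in step with the receptor but by less, from 689 ± 84.2 to 1675 ± 403 (SD, n = 3 each), which is a log2 fold change of 1.26 (95% interval 0.87 to 1.65, limma adjusted p = 0.00636). Within each library, the log2 ratio of Trem2 to Tyrobp was -0.11, -0.24 and -0.43 in the sham mice and 0.29, 0.09 and 0.04 in the ON-CR mice. The receptor was thus 0.40 higher against its adaptor on the log2 scale, without overlap between the groups. This pair and the other 5 described were chosen after their values were seen, so no test is given for them.

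The pattern receptor Clec7a and the integrin subunit Itgax showed the largest rises of the set. Clec7a (ENSMUSG00000079293.11, chromosome 6 from 129461591 to 129472779) encodes dectin-1, a receptor for fungal glucans that also signals through SYK. It was at 152, 62.0 and 131 in the sham group and 1365, 744 and 1500.4 with ON-CR. Every ON-CR mouse was at least 4.91-fold above the highest sham mouse, and sham mouse 2 was the lowest of all. The mean was 10.5-fold higher after ON-CR, with a log2 fold change of 3.41 (95% interval 2.65 to 4.18, limma adjusted p = 0.00168), rank 12 among the 14436 genes with a mean value of at least 50. Itgax (ENSMUSG00000030789.9, chromosome 7 from 128129547 to 128150657) encodes CD11c, the alpha subunit that pairs with the beta2 integrin chain. Its values were 29.7, 26.6 and 31.7 in the sham group, the tightest sham group of the set with a coefficient of variation of 8.82%. They were 301, 163 and 401 with ON-CR, which differed among themselves by more, with a coefficient of variation of 41.3%. The mean went from 29.3 ± 2.59 to 288 ± 119 (SD, n = 3 each), which is a log2 fold change of 3.16 (95% interval 2.46 to 3.87, limma adjusted p = 0.00168). Against Itgam, which encodes the related subunit CD11b of microglia in general, Itgax gained 2.59 on the log2 scale, from a log2 ratio of -3.79 ± 0.22 in sham mice to -1.20 ± 0.42 in ON-CR mice (SD, n = 3 each). Against Itgb2, the gene of its own partner chain, it gained 1.97, and Clec7a gained 2.18 against Card9, which encodes an adaptor of dectin-1 signalling.

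Lpl and Gpnmb, of lipid handling and the lysosome, followed. Lpl (ENSMUSG00000015568.16, chromosome 8 from 68880491 to 68907448) encodes lipoprotein lipase, which releases fatty acids from lipoproteins. Its values were 246, 175 and 209 in the sham group and 2211, 971 and 1336 with ON-CR. ON-CR mouse 4 was far above the other 2 mice of its group, and the coefficient of variation was 42.3% there against 16.9% in sham mice. The log2 fold change was 2.76 (95% interval 2.18 to 3.35, limma adjusted p = 0.00128), and it was 2.45 without ON-CR mouse 4. Gpnmb (ENSMUSG00000029816.10, chromosome 6 from 49036546 to 49070929) encodes a transmembrane glycoprotein of phagocytes rich in lysosomes. It was at 2378, 2202 and 1514 in the sham group and 11600.2, 8670.5 and 9849 with ON-CR, so the lowest ON-CR mouse was 3.65-fold above the highest sham mouse. The mean went from 2031 ± 457 to 10039.8 ± 1474 (SD, n = 3 each), and the log2 fold change of 2.32 (95% interval 1.93 to 2.71) had the lowest adjusted p of the set, 0.000341 by limma. Gpnmb added the most to the summed level of the set, since its mean rose by more normalised reads than that of any other member.

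Cd9 and Spp1 were the most abundant members in sham mice and rose least among those called. Cd9 (ENSMUSG00000030342.8, chromosome 6 from 125460266 to 125494791), a tetraspanin of the cell surface, was at 7003, 5320.0 and 5244 in the sham group and 10769, 8644 and 12143 with ON-CR. Its log2 fold change was 0.84 (95% interval 0.49 to 1.19, limma adjusted p = 0.0257). Of the markers of oligodendrocytes, which also express Cd9, 6 of 7 were called lower (median log2 fold change -0.87). That count was 0 when sham mouse 2 or ON-CR mouse 6 was left out. The part of these cells in the level of Cd9 was not tested. The RNA Gm26728 overlaps 218 bases of the exons of Cd9 on the other strand, and at 23.0 ± 11.3 in ON-CR mice (SD, n = 3) it was far below Cd9. Spp1 (ENSMUSG00000029304.14, chromosome 5 from 104435118 to 104441050) encodes osteopontin, a secreted ligand of integrins and of CD44. It was at 3069, 2543 and 3995 in the sham group and 5432, 5245 and 5957 with ON-CR, the tightest ON-CR group of the set with a coefficient of variation of 6.65%. Its log2 fold change was 0.81 (95% interval 0.47 to 1.16, limma adjusted p = 0.0286), and the gap between the groups was narrow, since the lowest ON-CR mouse was 1.31-fold above the highest sham mouse. Gm42793, on the same strand as Spp1 and sharing 309 bases of its exons, had at most 6.67 normalised reads in any library.

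Igf1 (ENSMUSG00000020053.18, chromosome 10 from 87858265 to 87937042), a growth factor made by microglia and by several other cell types, did not follow the rest. It was at 575, 918 and 887 in the sham group and 1309, 725 and 887 with ON-CR, so the groups overlapped and only ON-CR mouse 4 was above all sham mice. The log2 fold change was 0.28 (limma adjusted p = 0.619), and its 95% interval of -0.24 to 0.80 spans 0 and lies below the interval of Trem2. The summed fibroblast markers, from cells that also make Igf1, were between 23772 and 28447 in the sham group and between 14740 and 23081 with ON-CR (0 of 7 called by limma, 4 at an unadjusted p under 0.05), and their part in the level of Igf1 was not tested. The log2 ratio of Igf1 to Igf1r, the gene of its receptor, overlapped between the groups, at -1.14 ± 0.18 in sham nerves against -0.97 ± 0.31 after ON-CR (SD, n = 3 each).

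**Figure D2:**
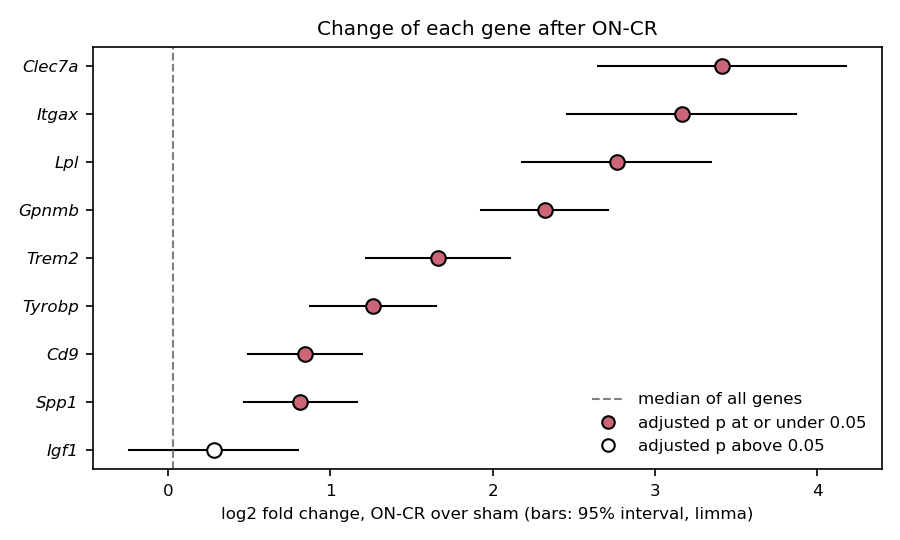
Log2 fold change of each gene after ON-CR over sham (horizontal axis, points) with its 95% interval by limma (bars), sorted by size, with the median of all 25755 genes as a dashed line at 0.03. The 8 filled points have an adjusted p at or under 0.05 and intervals that lie above 0, from Clec7a at 3.41 to Spp1 at 0.81, and the interval of Igf1 (open point) spans 0.

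The unequal rises changed the order of the members by abundance, compared per kilobase of merged exons. In sham mice the order of normalised reads per kilobase was Cd9 (2865 ± 486), Spp1 (1943 ± 446), Tyrobp (1032 ± 126), Gpnmb (312 ± 70.1), Trem2 (118 ± 26.9), Igf1 (80.1 ± 19.1), Clec7a (43.5 ± 17.8), Lpl (20.1 ± 3.38) and Itgax (6.10 ± 0.54; SD, n = 3 for each). Neighbours in this order did not overlap between mice except Clec7a and Lpl, whose ranges did although Clec7a was the higher in 3 of 3 mice. In ON-CR mice the upper 4 kept their order, at 5146 ± 862 for Cd9, 3364 ± 224 for Spp1, 2511 ± 604 for Tyrobp and 1541 ± 226 for Gpnmb (SD, n = 3). Clec7a then stood beside Trem2, at 456 ± 153 against 373 ± 81.2 normalised reads per kilobase (SD, n = 3), with overlapping ranges and the order Clec7a above Trem2 in 2 of 3 mice. Lpl (144 ± 60.8), Igf1 (98.3 ± 30.4) and Itgax (60.0 ± 24.8; SD, n = 3 for each) followed, each overlapping the next. Merged exons count every annotated exon of a gene once, so a level per kilobase depends on the annotation.

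The ON-CR mice differed from each other in the same order for most members. ON-CR mouse 5 was the lowest of its group in 9 of 9 members, ON-CR mouse 6 the highest in 6 and ON-CR mouse 4 the highest in 3 (Lpl, Gpnmb and Igf1). Over the 9 members, the median difference from the sham mean on the log2 scale was 1.78, 1.29 and 1.93 in mice 4, 5 and 6. The summed level of general myeloid genes was ordered likewise, at 38892, 25955 and 44330 with ON-CR, against 18058 to 21748 in sham mice. Its part in the differences among the ON-CR mice was not tested.

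**Figure D3:**
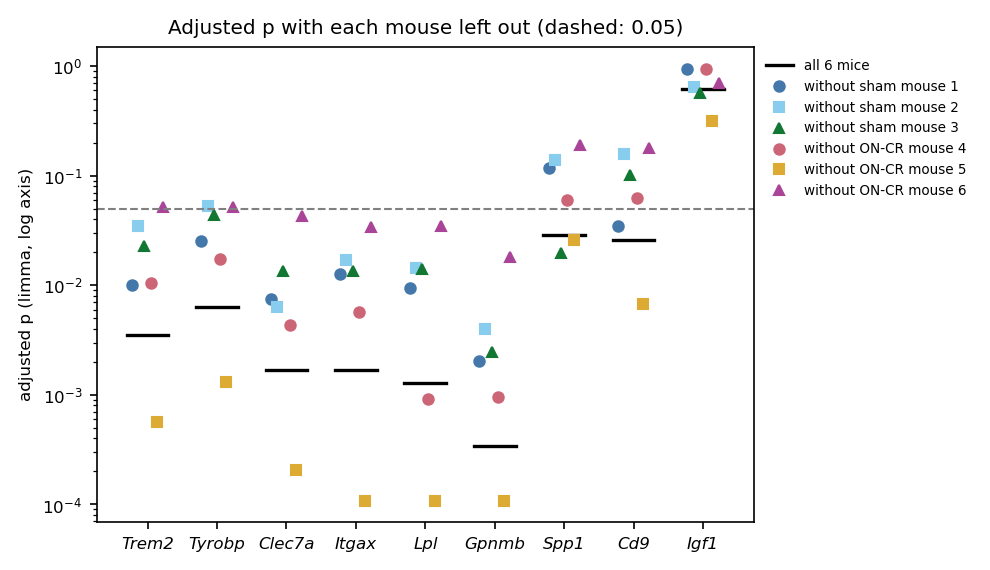
Adjusted p by limma (vertical axis, log scale) of each of the 9 genes with all 6 mice (black bars) and with each mouse left out in turn (coloured points), with 0.05 as a dashed line. The points of Clec7a, Itgax, Lpl and Gpnmb stay under the line in all 6 fits, with 0.0429 for Clec7a as the highest among them, and the points without ON-CR mouse 6 (purple triangles) lie above the line for Trem2, Tyrobp, Spp1, Cd9 and Igf1.

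With each mouse left out in turn, Clec7a, Itgax, Lpl and Gpnmb were called in 6 of 6 fits. Trem2 had an adjusted p of 0.0518 by limma without ON-CR mouse 6, and Tyrobp one of 0.0518 with ON-CR mouse 6 left out and 0.0529 with sham mouse 2 left out. Spp1 lost its call without sham mouse 1, sham mouse 2, ON-CR mouse 4 or ON-CR mouse 6 (limma adjusted p = 0.116, 0.14, 0.0599 and 0.192), and Cd9 without sham mouse 2, sham mouse 3, ON-CR mouse 4 or ON-CR mouse 6 (limma adjusted p = 0.157, 0.101, 0.0619 and 0.18). Across these fits, log2 fold changes ran from 1.51 to 1.85 for Trem2 and from 1.08 to 1.42 for Tyrobp. They ran from 0.66 to 0.99 for Spp1 and from 0.73 to 0.98 for Cd9. That of Igf1 ran from 0.05 without ON-CR mouse 4 to 0.47 without ON-CR mouse 5. ON-CR mouse 4, the ON-CR library with Ddx3y, was also set alone against the 3 sham mice, a comparison chosen after its values were seen. It gave log2 fold changes of 3.66 for Clec7a, 3.40 for Lpl, 3.32 for Itgax, 2.54 for Gpnmb and 1.78 for Trem2, each above its value with all mice. Cd9 and Igf1 were also higher, at 0.89 and 0.75, while Tyrobp and Spp1 were lower than with all mice, at 1.23 and 0.79. This library held Xist as well, so it does not separate sex from surgery. With that 1 mouse the adjusted p-values by limma were 0.0890 or more, with 0 members and 1 gene of the whole table called.

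To set the members against the amount of myeloid RNA, each was expressed within its library relative to 11 genes of microglia and macrophages in general (Aif1, Itgam, Ptprc, Laptm5, Fcer1g, Csf1r, Coro1a, Fcgr3, C1qa, C1qb and C1qc). These genes rose too, with 7 of 11 called higher and a median log2 fold change of 0.98, led by Fcer1g, the gene of the Fc receptor gamma chain, at 1.34 (limma adjusted p = 0.00880). The 7 calls rested on the full set of mice, since 0 were made without sham mouse 2 or ON-CR mouse 6, 1 without sham mouse 1 or sham mouse 3, 2 with ON-CR mouse 4 left out and 10 with ON-CR mouse 5 left out. Relative to them, 6 of 9 members were still higher in every ON-CR mouse than in every sham mouse, against 0.784% of all genes, while 51.5% of all genes were lower in every ON-CR mouse. The gain was 2.47 on the log2 scale for Clec7a, 2.22 for Itgax, 1.82 for Lpl, 1.38 for Gpnmb, 0.72 for Trem2 and 0.32 for Tyrobp. Each of the 6 had the smallest p possible, 0.1 by a two-sided exact permutation test and 0.15 adjusted over the 9 members. Spp1 and Cd9 had differences of -0.13 and -0.10 on this scale, with overlapping groups (exact permutation p = 0.5, 0.5 adjusted), and Igf1 had a difference of -0.66 (exact permutation p = 0.2, 0.257 adjusted).

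**Figure D4:**
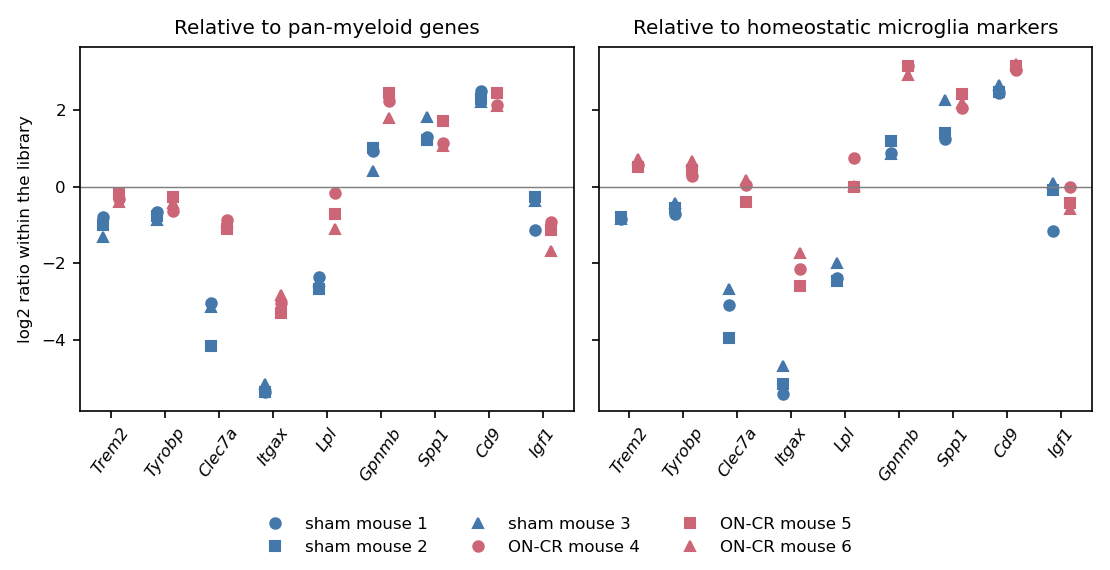
Log2 ratio of each of the 9 genes to the mean log2 level of 11 pan-myeloid genes (left) or 11 homeostatic microglia markers (right) in the same library, 1 point per mouse, with sham mice in blue and ON-CR mice in red. On the left the red points of Trem2, Tyrobp, Clec7a, Itgax, Lpl and Gpnmb lie above the blue ones, and on the right those of Cd9 do too.

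Markers of homeostatic microglia, the surveying state of the healthy tissue, were measured beside the members. By limma 0 of the 11 were called in either direction (3 at an unadjusted p under 0.05), and their median log2 fold change was 0.27. Without sham mouse 1 there was 1 call, and without ON-CR mouse 5 there were 3, all higher. Cx3cr1 and Olfml3, among the most abundant, had log2 fold changes of 0.72 and -0.12 (limma adjusted p = 0.128 and 0.821). P2ry12, a purine receptor lost early from this state, was at 1682 ± 383 in sham nerves and 1298 ± 135 in ON-CR nerves (SD, n = 3 each; limma adjusted p = 0.364), and Tmem119 at 1648 ± 114 and 1375 ± 179 (SD, n = 3 each; limma adjusted p = 0.351). Both were picked out after their values were seen. Relative to the mean of these 11 markers, 7 of 9 members were higher in every ON-CR mouse than in every sham mouse, against 3.27% of all genes. Trem2 was almost constant there among sham mice, at -0.83 ± 0.02, and rose to 0.60 ± 0.11 in ON-CR mice (SD, n = 3 each), a gain of 1.42 (exact permutation p = 0.1, 0.129 adjusted over the 9 members). Against P2ry12 alone, the log2 ratio of Trem2 went from between -1.74 and -1.42 in sham mice to between 0.29 and 0.67 in ON-CR mice.

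Other genes of disease-associated microglia were higher in part. Of 20 such genes, 12 were called higher and 0 lower, and their median log2 fold change was 0.81. Cst7, which encodes the protease inhibitor cystatin F, rose most, by 4.97 on the log2 scale (limma adjusted p = 0.000136). Lgals3, which encodes galectin-3, went from 332 ± 40.0 to 1871 ± 161 (SD, n = 3 each), and Cd68, a lysosomal glycoprotein of macrophages, from 794, 622 and 617 in the sham group to 2650.2, 1822 and 2654 with ON-CR. These 3 were called with each mouse left out in turn. Ch25h, which encodes the enzyme that makes 25-hydroxycholesterol, was at 29.5, 36.3 and 28.2 in the sham group and 242, 110 and 139 with ON-CR, a log2 fold change of 2.28 (limma adjusted p = 0.00661, and 0.0709 without ON-CR mouse 6). The RNA Gm26902 shares 159 bases with it on the other strand and was at no more than 24.1 in any library. The chemokine Ccl6 and the cathepsins Ctsd, Ctsz and Ctsb had log2 fold changes of 1.88, 1.20, 0.98 and 0.69. The others called were Cd52, Lilrb4a, Cd63 and Timp2, with log2 fold changes of 1.94, 1.70, 0.59 and 0.52. Of the 8 not called, 4 had a positive log2 fold change and 4 a negative one. The positive ones were B2m, Ctsl, Fabp5 and Axl, at 0.94, 0.44, 0.35 and 0.28 (limma adjusted p = 0.123, 0.114, 0.332 and 0.240). Fth1, the gene of ferritin heavy chain, was at -0.53 with every ON-CR mouse below every sham mouse (limma adjusted p = 0.264), and Lyz2 and Csf1 were at -0.11 and -0.09 (limma adjusted p = 0.870 and 0.801). The count of 12 was 3 without ON-CR mouse 6, between 6 and 8 without any 1 of sham mice 1 to 3 or ON-CR mouse 4, and 14 when ON-CR mouse 5 was left out.

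Genes of TREM2 and dectin-1 signalling, listed together with those of TREM2 shedding, missed the threshold with all 6 mice. Of 11 genes for adaptors, kinases, phosphatases and sheddases, 0 had an adjusted p at or under 0.05 by limma and 7 an unadjusted p under 0.05. A positive log2 fold change was found in 10 of 11, and the median of the 11 was 0.75. In 7 of 11 every ON-CR mouse was above every sham mouse, against 10.5% of all genes. Without ON-CR mouse 5, the lowest of its group in the members, 6 of the 11 were called higher. The most abundant were Adam10 and Adam17, the proteases that shed TREM2 from the surface, and the linker Grb2, with log2 fold changes of 0.10, -0.05 and 0.16. Syk and Plcg2, the kinase and the phospholipase of this pathway, were picked out after their values were seen and were at 0.49 and 0.82 (limma adjusted p = 0.399 and 0.172). Hcst, the gene of the alternative adaptor DAP10, went from 12.5 ± 1.75 to 40.0 ± 11.1 (SD, n = 3 each; limma adjusted p = 0.0750). Among the other receptors of the TREM cluster, Treml2 was at 3.18, 2.66 and 8.45 in the sham group and 23.9, 25.2 and 37.4 with ON-CR (limma adjusted p = 0.0422), with 1 of 6 fits that left out a mouse keeping the call. In sham mice 1 and 2 Treml2 was at the floor of 3 reads. Treml1 and Treml4 were not called, with log2 fold changes of -1.05 and -0.02.

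Binding partners of the members split. Of 20 receptors, ligands, subunits and cofactors, 2 were called higher and 2 lower. Cd44, a receptor of osteopontin, went from 741 ± 132 to 2413 ± 354 (SD, n = 3 each), which is a log2 fold change of 1.71 (limma adjusted p = 0.000957), and was called with each mouse left out. Itgb2, the partner chain of Itgax, had a log2 fold change of 1.20 (limma adjusted p = 0.0256) and kept its call in 1 of 6 such fits. Itgb3, a chain of another osteopontin receptor, fell by 1.05 on the log2 scale and Igfbp4, which binds IGF1, fell by 1.01 (limma adjusted p = 0.0287 and 0.0317), with their calls kept in 2 and 3 of 6 fits. Igf1r, the receptor of IGF1, was at 1727 ± 245 and 1865 ± 244 (SD, n = 3 each). Among transcription factors linked to this state or its genes, Irf8, a factor of myeloid cells, had a log2 fold change of 1.53 (limma adjusted p = 0.00733), and Tfeb, a factor of lysosomal genes that is also active in oligodendrocytes, fell by 0.97 (limma adjusted p = 0.0336). Leaving out sham mouse 2 or ON-CR mouse 6 ended both calls, and leaving out sham mouse 1 ended that of Tfeb. Mitf was at 294 ± 61.2 and 295 ± 49.3 (SD, n = 3 each), and Spi1, the gene of PU.1, at 107 ± 43.9 and 91.2 ± 72.8 (SD, n = 3 each).

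**Figure D5:**
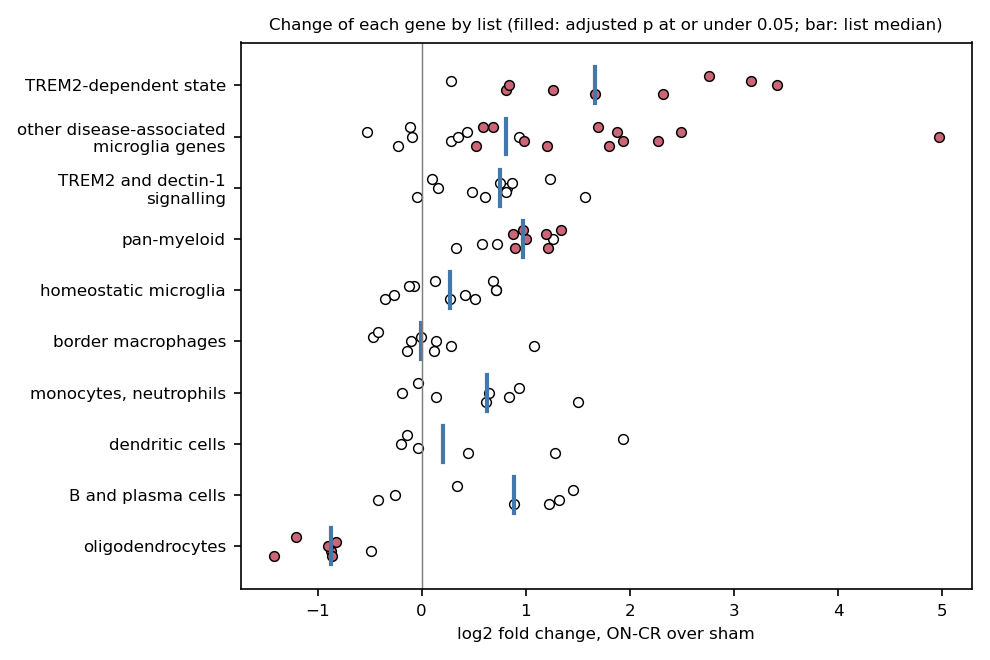
Log2 fold change after ON-CR over sham (horizontal axis) of each gene, 1 point per gene, in 10 lists, with the list median as a blue bar and those called by limma filled. The median of the TREM2-dependent genes is 1.66 with 8 of 9 filled, against 0.27 with none filled for homeostatic microglia and -0.87 with 6 of 7 filled for oligodendrocytes.

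Markers of other cells that can express these genes were measured beside them. Of 9 border macrophage markers, 0 were called by limma (2 at an unadjusted p under 0.05), and their summed level was between 2313 and 2825 in sham mice and between 2106 and 2712 in ON-CR mice. Of 8 monocyte and neutrophil markers 0 were called, and 0 had an unadjusted p under 0.05 (summed level 331 to 715 and 401 to 1274), and of 6 dendritic cell markers 0 were called and 1 had an unadjusted p under 0.05 (summed level 222 to 491 and 224 to 651), with ON-CR mouse 6 the highest in both. B cell and plasma cell markers (0 of 7 called, 0 at an unadjusted p under 0.05) summed to between 721 and 2402 in sham mice and to 1397, 371 and 98517 with ON-CR. The rises of Clec7a, Itgax, Lpl and Gpnmb without ON-CR mouse 6 were 3.22, 2.88, 2.81 and 2.33 on the log2 scale. Markers of fat were at or near the floor of detection, with 3 of 7 in the table and a summed level between 3.76 and 23.0 in sham mice and between 0 and 12.6 in ON-CR mice. Skeletal muscle markers (0 of 5 called, 0 at an unadjusted p under 0.05) summed to between 74.7 and 250 in sham mice and to between 86.8 and 137 in ON-CR mice. Pigment cell markers, 4 of 7 in the table with 0 called and 1 at an unadjusted p under 0.05, summed to between 151 and 186 in sham mice and between 117 and 203 in ON-CR mice, with a median log2 fold change of 0.56, where Gpnmb was at 8670.5 or more. The part of these cells in the levels of Lpl and Gpnmb was not tested beyond these values.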

How the data were processed

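Whole optic nerve RNA of 6 mice was amplified with a low-input kit and sequenced, with 3 sham and 3 ON-CR libraries grouped by the labels, which number the mice separately. Reads were aligned and counted per gene by the authors (DRAGEN), who scaled each library by median normalization in Partek Flow 10.0 (mm10, per the labels) and deposited a signal per gene, an estimated read count divided by 1 factor per library, here called the normalised read count. Raw counts were not used here. Between 66.9% and 69.5% of values came out as whole reads (within 0.02 reads), so no count model was run and limma 3.58.1 (R 4.3.3), with a trend and Benjamini-Hochberg adjustment over 25755 genes, was fitted to log2(value + 1), a scale that understates changes of low genes. A call is an adjusted p at or under 0.05. The study itself fitted a count model.

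Depth was estimated from the value of 1 read in each library. Replicates differed by more than sampling noise (chi-square divided by its degrees of freedom, 16.5 to 47.2). Ratios within a library were differences of log2 values. Those to gene lists were tested by the two-sided exact permutation test, and those of 6 gene pairs are descriptions. Exon lengths and positions came from GENCODE on GRCm38, and promoters from RefSeq. Whether counting used strand is not given in the sources used here. The members and gene lists were chosen with earlier results of these data known. Named genes were the members, the genes called in each list or otherwise up to 3 of highest mean, the 5 genes most like the members, Nf1, Xist and Ddx3y. Hcst, Syk, Plcg2, P2ry12, Tmem119, Igf1r, Treml1, Treml4, Mitf, Spi1, B2m, Ctsl, Fabp5, Axl, Fth1, Lyz2 and Csf1, the gene pairs and the motifs were chosen after values were seen. Alternatives were pseudocounts of 0.1 and 2, a minimum mean of 10, upper-quartile and TMM scaling, a robust fit, sample quality weights and leaving out each mouse. The fit was tested on simulated data. Mice with traumatic brain injury were not analysed here. Values of some listed genes are not reported here.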

Additional observations from a re-analysis of the deposited data

How the results depend on the processing

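No member's fold change turned sign under any alternative run. Medians of some short marker lists did with a mouse left out, as for B cell and plasma cell markers (0.89 with all mice, -1.17 without ON-CR mouse 6) and the other TREM receptors (-0.02 with all mice, 0.72 without sham mouse 1, 1.12 without ON-CR mouse 5). Clec7a, Itgax, Lpl and Gpnmb were called under each of 13 alternatives, and Igf1 under none. With a mouse left out, between 4 and 8 members were called (8 with all mice), between 67 and 854 genes of the whole table (540 with all mice) and between 4 and 48 genes of the other lists (34 with all mice), with the fewest without ON-CR mouse 6. Under the other alternatives the member count was 8 in each. The count of members above the pan-myeloid genes was 6 with each mouse left out. ON-CR mouse 4 alone against the 3 sham mice, chosen after seeing the data, gave 0 members, 1 gene of the whole table and 0 genes of the other lists, from a fit with 1 mouse in a group, whose spread was taken to equal that of the sham mice. No paired analysis was possible because the sham and ON-CR mice share no replicate number. With 3 mice against 3, an exact permutation p cannot go below 0.1.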

Other observations

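The genes outside the set whose log2 values followed the members' mean standardized pattern most closely over the 6 libraries, among 14427 with a mean value of at least 50, were Gpr84, Cdc14b, Mpeg1, Timp2 and C3ar1, with Pearson r between 0.995 and 0.998. These correlations are descriptions, since the 6 libraries fall into 2 groups that differ in the members. Gpr84, a receptor for medium-chain fatty acids on myeloid cells, was at 33.0, 27.5 and 38.9 in sham mice 1, 2 and 3 and at 323, 143 and 326 in ON-CR mice 4, 5 and 6, a log2 fold change of 2.87 (limma adjusted p = 0.00297). Mpeg1, which encodes the pore-forming perforin-2 of macrophages, had a log2 fold change of 2.15 (limma adjusted p = 0.00264). C3ar1, the receptor of the complement fragment C3a, had one of 1.67 (limma adjusted p = 0.00237). In all 3, ON-CR mouse 5 was the lowest ON-CR mouse and ON-CR mouse 6 the highest, as in 6 of the 9 members. Cdc14b, a phosphatase gene, was close in pattern but small in size, with a log2 fold change of 0.44 (limma adjusted p = 0.190).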
